A study of Homo sapiens with 12 samples.

Results

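Nuclear genes of oxidative phosphorylation were taken as the protein-coding genes on chromosomes 1 to 22 and X whose symbols begin with NDUFA, NDUFB, NDUFC, NDUFS, NDUFV, UQCR, COX4, COX5, COX6, COX7, COX8 or ATP5, together with SDHA, SDHB, SDHC, SDHD and CYC1. The rule found 99 genes among 20098. It used names only, so the genes were not selected on any measured value. Of these, 46 belong to complex I (8 of them assembly factors of the NDUFAF series), 4 to complex II, 10 to complex III, 19 to complex IV and 20 to complex V. The set also holds 9 tissue-restricted isoforms or gene copies and 2 read-through genes. Chromatin immunoprecipitation sequencing was performed in HCC70, an established human triple-negative breast cancer cell line, with antibodies against the sterol-responsive transcription factor SREBP2, the nuclear receptor RORγ and the histone mark H3K27ac. Cells received vehicle or XY018, a small-molecule antagonist of RORγ, for 24 h, at a dose the sample labels give as 5 µM. The methods of the study state a lower dose. Each antibody and treatment was represented by 1 library of 1 cell line, so that no difference reported below has a replicate check and no p-value is given.

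Oxidative phosphorylation couples the oxidation of NADH and succinate to ATP synthesis in the inner mitochondrial membrane. Complexes I and II pass electrons through ubiquinone to complex III, cytochrome c carries them to complex IV, which reduces oxygen, and complexes I, III and IV pump the protons that drive the ATP synthase, complex V. Most subunits are encoded in the nucleus, and their promoters are known for short GC-rich elements bound by NRF1, by ETS-family factors such as GABP and by YY1.

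A gene was counted as occupied in a library when a deposited peak, called a region here, fell by at least 1 bp in a window around any annotated transcript start, reaching 1000 bp before it and 100 bp past it. The level of a region is the number of sequenced fragments stacked at its summit, recovered from the deposited fold enrichment and −log10 p. The lists held 69700 to 167264 regions and the libraries 3.65 to 6.16 tags per kb of genome. Their median region carried 7 to 15 fragments, so that many single-gene values rest on few reads. H3K27ac with vehicle marked the promoters of all 4 epithelial genes examined (EPCAM, CDH1, KRT8 and KRT18) and of 5 of 7 basal markers, the exceptions being KRT14 and KRT6B. Of the hormone receptors, PGR had no H3K27ac region and ESR1 had one of 10 fragments. Of the leukocyte and stromal genes PTPRC, CD3E, COL3A1 and COL1A1, COL1A1 had a region.

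Promoter sequences of 8 genes are printed first to set the gene with the most factor fragments in each complex beside the unoccupied subunits of complex II. Each run is the 250 bases just before the start of the canonical transcript, read 5′ to 3′ on the gene's own strand from hg19. Capitals mark matches to the NRF1 element GCGCANGCG, the ETS element CCGGAAGT or the YY1 element AANATGGCG on either strand. The first 5, from complexes I to V in turn, are NDUFA13 (chr19:19626784-19627033, plus strand), SDHA (chr5:218185-218434, plus), UQCRH (chr1:46769120-46769369, plus), COX8C (chr14:93813278-93813527, plus) and ATP5MJ (chr14:104387867-104388116, minus). Each had the most SREBP2 plus RORγ fragments under vehicle in its complex, except that in complex I NDUFAF6 had more and is named only. The strongest SREBP2 region overlapped the printed run at SDHA and COX8C, but lay farther upstream at NDUFA13, UQCRH and ATP5MJ. At NDUFA13 the SREBP2 and RORγ summits lay 274 and 262 bp from TSSK6, but 1075 and 1063 bp from the nearest start of NDUFA13.
NDUFA13: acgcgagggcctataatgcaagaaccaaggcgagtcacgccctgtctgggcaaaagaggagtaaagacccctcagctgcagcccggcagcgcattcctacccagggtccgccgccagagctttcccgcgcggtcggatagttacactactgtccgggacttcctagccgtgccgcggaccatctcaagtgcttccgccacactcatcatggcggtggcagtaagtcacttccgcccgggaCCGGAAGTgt
SDHA: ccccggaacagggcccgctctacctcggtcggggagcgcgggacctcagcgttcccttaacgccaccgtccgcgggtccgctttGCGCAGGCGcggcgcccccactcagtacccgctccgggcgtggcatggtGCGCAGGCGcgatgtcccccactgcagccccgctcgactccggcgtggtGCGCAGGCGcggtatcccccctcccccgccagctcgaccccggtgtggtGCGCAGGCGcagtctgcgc
UQCRH: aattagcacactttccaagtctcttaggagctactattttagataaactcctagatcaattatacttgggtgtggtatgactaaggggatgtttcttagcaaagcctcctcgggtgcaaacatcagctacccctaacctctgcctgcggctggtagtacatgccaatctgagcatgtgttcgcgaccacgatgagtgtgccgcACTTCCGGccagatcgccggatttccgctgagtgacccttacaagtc
COX8C: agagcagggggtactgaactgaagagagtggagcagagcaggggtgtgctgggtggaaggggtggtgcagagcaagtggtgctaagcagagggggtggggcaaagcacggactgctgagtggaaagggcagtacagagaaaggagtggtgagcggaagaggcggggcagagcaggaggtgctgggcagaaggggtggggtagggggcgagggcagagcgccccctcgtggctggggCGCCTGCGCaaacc
ATP5MJ: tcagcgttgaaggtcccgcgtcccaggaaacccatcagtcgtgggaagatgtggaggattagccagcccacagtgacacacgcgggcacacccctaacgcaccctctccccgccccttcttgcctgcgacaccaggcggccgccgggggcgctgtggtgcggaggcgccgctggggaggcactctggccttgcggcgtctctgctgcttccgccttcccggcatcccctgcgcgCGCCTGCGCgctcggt

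The other 3 subunits of complex II had neither SREBP2 nor RORγ regions. They are SDHB (chr1:17380528-17380777, minus strand), SDHC (chr1:161283921-161284170, plus) and SDHD (chr11:111957347-111957596, plus), printed for comparison with SDHA and chosen after their values were seen.
SDHB: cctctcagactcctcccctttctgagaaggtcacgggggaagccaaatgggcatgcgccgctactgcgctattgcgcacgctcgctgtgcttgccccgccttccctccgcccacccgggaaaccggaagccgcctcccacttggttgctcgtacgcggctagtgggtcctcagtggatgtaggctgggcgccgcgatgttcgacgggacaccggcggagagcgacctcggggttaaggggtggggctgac
SDHC: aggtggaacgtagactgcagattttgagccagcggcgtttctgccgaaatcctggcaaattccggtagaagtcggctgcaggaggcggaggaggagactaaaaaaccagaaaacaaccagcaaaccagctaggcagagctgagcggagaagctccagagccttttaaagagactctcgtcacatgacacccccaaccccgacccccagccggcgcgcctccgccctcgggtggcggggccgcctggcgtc
SDHD: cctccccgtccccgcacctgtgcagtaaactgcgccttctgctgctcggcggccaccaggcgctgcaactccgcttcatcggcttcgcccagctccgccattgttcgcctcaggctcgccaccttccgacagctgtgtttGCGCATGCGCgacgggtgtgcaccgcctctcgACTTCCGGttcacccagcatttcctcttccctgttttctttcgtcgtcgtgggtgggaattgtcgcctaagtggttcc

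The SDHA run holds 4 copies of the NRF1 element, beginning 166, 117, 68 and 19 bases before the start, and is 75.2% G or C. COX8C and ATP5MJ hold 1 each, 14 and 16 bases before the start, and NDUFA13 and UQCRH hold 1 ETS element each, 10 and 47 bases before it. SDHD, which had no factor region, also carries the NRF1 element, in 2 overlapping matches at 110 and 109 bases, and an ETS element at 78. SDHB and SDHC have none of the 3 in these 250 bases, at 66.4% and 60.4% GC, although a YY1 element follows the start of SDHB within 50 bases. Within complex II the NRF1 letters thus stood in the occupied promoter and in 1 of the 3 unoccupied ones. Within 300 bp of promoter (250 before the start and 50 after it), neither the SREBP element TCACNCCAC nor the ROR half-site TAGGTCA or TGGGTCA was found in SDHA or COX8C. The factor summits with vehicle lay beyond this window at SDHA, and 181 and 200 bp from the nearest start of COX8C. This search therefore did not cover the sequence under those summits.

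Almost all of the genes carried the active mark, whereas the 2 factors occupied them no more often than other genes. H3K27ac was called at 95 of the 99 genes with vehicle and at 95 with XY018, 96.0% in each (exact 95% interval 89.98 to 98.9%), against 66.8% and 68.0% of all protein-coding genes. SREBP2 was called at 67 genes with vehicle, 67.7% (57.5 to 76.7%), against 70.6% of all genes, and at 53 with XY018, 53.5% (43.2 to 63.6%), against 62.7%. RORγ was called at 54 genes in either library, 54.5% (44.2 to 64.6%), against 62.6% of all genes with vehicle and 61.5% with XY018. Both factors were called together at 53 of the genes with vehicle (60.2% of all genes) and at 46 with XY018 (57.5% of all genes). At 51 and 46 of these, respectively, the regions overlapped each other, as at 11787 of 12108 and 11417 of 11563 over all genes. The median level with vehicle was 23 fragments for SREBP2, 17 for RORγ and 41 for H3K27ac, below the 29, 24 and 60 of all genes with a region. The intervals cover counting error only.

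**Figure D1:**
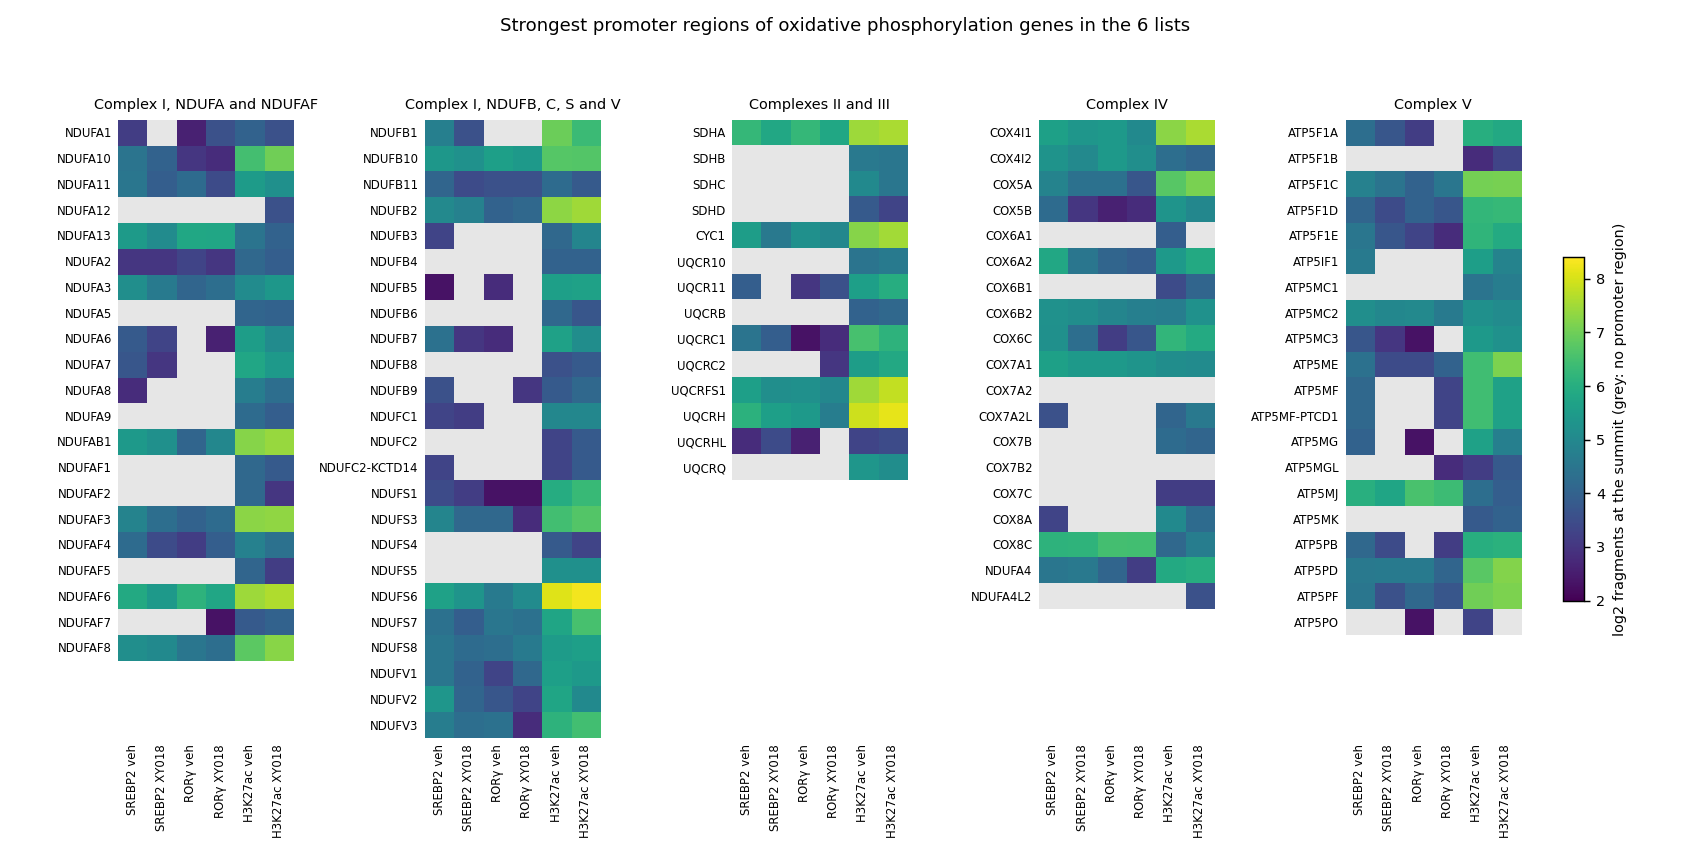
Heat map of log2 fragments at the summit of the strongest promoter region of 98 of the 99 genes (rows, by complex) in the 6 lists (columns), with grey where no region was called. The H3K27ac columns are filled for nearly all genes, while grey blocks in the 4 factor columns run through SDHB, SDHC and SDHD and through several small subunits of complexes I, III, IV and V.

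The genes fell mainly into those with every antibody and those with the histone mark alone. Regions were present in all 6 lists at 44 genes, 44.4%, close to the 46.3% of all genes. At the other end, 23 genes had H3K27ac in both libraries and none of the 4 factor lists, which is 24.7% (16.4 to 34.8%) of the 93 with H3K27ac in both, against 9.35% of the 12988 such genes in all. They include SDHB, SDHC and SDHD of complex II, ATP5F1B, the catalytic β subunit of ATP synthase, and small accessory subunits such as COX6B1, COX7B, COX7C, NDUFA5, NDUFB4, UQCR10 and UQCRQ. Their H3K27ac levels with vehicle were low, between 7 and 41 fragments with a median of 17, against a median of 73.5 and a range of 18 to 271 at the 44 genes in all lists. The 23 promoters also had a lower median GC content, 56.7% against 66.2%. COX7A2 and COX7B2 had no region in any list, NDUFA12 and NDUFA4L2 only an H3K27ac region of 12 fragments each with XY018, and COX6A1 only one of 15 fragments with vehicle.

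Factor occupancy followed the level of H3K27ac and the GC content of the promoter. H3K27ac-marked genes were placed in 3 classes of vehicle fragments of about equal size, up to 36, up to 91 and above. In the highest class SREBP2 was called at all 18 oxidative phosphorylation genes and RORγ at 17, as at 99.3% and 95.7% of all genes of that class. In the middle class SREBP2 was called at 30 of 33, 90.9% (75.7 to 98.1%), against 93.9% of all genes, and RORγ at 24 of 33, 72.7% (54.5 to 86.7%), against 80.1%. The lowest class held 44 of the 95, with SREBP2 at 19, 43.2% (28.3 to 59.0%), against 70.2% of all genes, and RORγ at 13, 29.5% (16.8 to 45.2%), against 55.1%. The set was therefore weighted towards the class of weak H3K27ac and, within it, had fewer factor regions than other genes by more than the counting error. In classes of GC content, SREBP2 was called at 33 of 60 genes in the lowest class (up to 63% GC), 55% (41.6 to 67.9%) against 69.6% over all genes, and at 25 of 26 and 9 of 9 in the classes above. What sets the difference in the lowest classes was not tested.

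**Figure D2:**
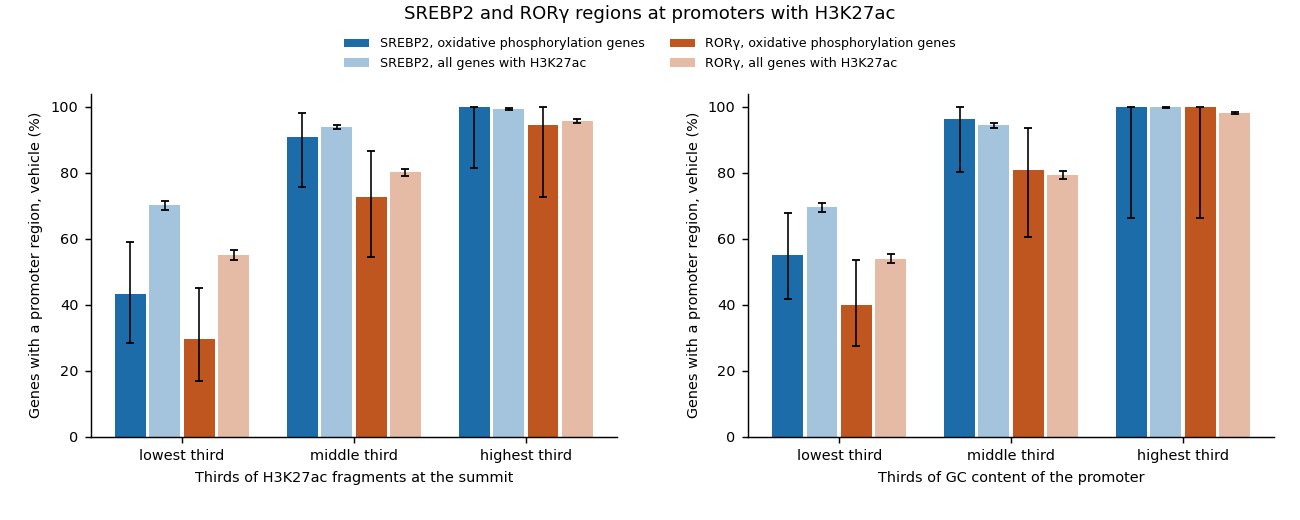
Share of genes with a SREBP2 or RORγ promoter region under vehicle in 3 classes of H3K27ac fragments (left) and of promoter GC content (right), for oxidative phosphorylation genes (dark) and all genes with H3K27ac (light), with exact 95% intervals for counting error. The dark bars lie below the light ones in the lowest classes, for example 43.2% against 70.2% for SREBP2 by H3K27ac, and close to them above.

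In complex I, the NADH dehydrogenase, SREBP2 was called at 33 of 46 genes with vehicle and 26 with XY018, RORγ at 25 in each, and H3K27ac at 45 and 46. The core subunits NDUFS1, NDUFS3, NDUFS7, NDUFS8, NDUFV1 and NDUFV2 had both factors with vehicle and with XY018, counting any annotated start. At their canonical starts NDUFS3, NDUFS8 and NDUFV1 had no RORγ region with vehicle, and 7, 5 and 18 fragments with XY018. The SREBP2 summits of NDUFS1 and NDUFS3 with vehicle lay nearer to EEF1B2 (209 bp) and PTPMT1 (6 bp) than to their own starts (634 and 257 bp). Their RORγ summits with vehicle were also nearer to those genes. NDUFV2, the iron-sulfur subunit next to the NADH site, had 41 and 17 fragments for SREBP2 with vehicle and XY018, 13 and 10 for RORγ, and 54 and 33 for H3K27ac, lower with XY018 for each antibody. NDUFS7 had 21 and 15 SREBP2 fragments, 23 and 21 for RORγ and 54 and 93 for H3K27ac, so that the mark and SREBP2 lay in opposite directions. Its RORγ summit with vehicle was 7076 bp and its SREBP2 summit with XY018 3597 bp downstream of the canonical start, near other annotated starts. At the canonical start it had 12 SREBP2 fragments with XY018, and 11 and 8 for RORγ. The accessory subunit NDUFS6 had the most H3K27ac fragments of the 99 genes, 271 with vehicle and 315 with XY018, with 51 and 40 for SREBP2 and 25 and 34 for RORγ. The summit of that H3K27ac region lay 124 bp from the start of the divergent gene MRPL36. Of the 8 assembly factors, which help build the complex without remaining in it, 4 had SREBP2 (NDUFAF3, NDUFAF4, NDUFAF6 and NDUFAF8), while NDUFAF1, NDUFAF2, NDUFAF5 and NDUFAF7 had none in either library.

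Complex II, succinate dehydrogenase, was divided between 1 strongly occupied subunit and 3 without either factor. SDHA, the flavoprotein that binds succinate, had the most SREBP2 fragments of the set with vehicle, 77, and had 57 with XY018, where COX8C had more. For RORγ it had 77 and 56, and for H3K27ac 177 and 194. Its vehicle regions nearly coincided, at chr5:217955-219209 for SREBP2, chr5:218114-219261 for RORγ and chr5:217955-219259 for H3K27ac, with summits 563, 538 and 548 bp downstream of the start. SDHB, the iron-sulfur subunit, had no factor region and 24 and 23 H3K27ac fragments, in a region 8530 bp inside the gene at another annotated start. At its canonical start the H3K27ac counts were 20 and 23. The membrane anchors SDHC and SDHD had no factor region either, with 33 and 23 and with 14 and 10 H3K27ac fragments. SDHA has pseudogene copies elsewhere in the genome, and tags placed at several sites were removed upstream according to the study's methods, which can lower its counts.

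In complex III, ubiquinol-cytochrome c reductase, SREBP2 was called at 6 of 10 genes with vehicle and 5 with XY018, and RORγ at 6 in each. UQCRFS1, the Rieske iron-sulfur protein, had 49 and 36 SREBP2 fragments, 37 and 31 RORγ fragments and 178 and 224 H3K27ac fragments. CYC1, cytochrome c1, had 47 and 24 for SREBP2, 37 and 31 for RORγ and 152 and 182 for H3K27ac. Both catalytic subunits thus had fewer SREBP2 and more H3K27ac fragments with XY018. UQCRH, the hinge protein between cytochrome c1 and cytochrome c, had 69 and 49 SREBP2 fragments and 243 and 287 H3K27ac fragments. However, its factor summits lay 1854 and 1550 bp upstream of its canonical start and nearer to LRRC41. The H3K27ac summit of UQCRH with vehicle lay 193 bp from LRRC41 and 628 bp from its own nearest start. UQCR10, UQCRB and UQCRQ, all small accessory subunits, had no factor region, and UQCRC2, a core protein, had of the factors only RORγ with XY018, at 8 fragments.

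In complex IV, cytochrome c oxidase, SREBP2 was called at 12 of 19 genes with vehicle and at 10 with XY018, and RORγ at 10 in each. COX4I1, the common isoform of subunit IV, had 50 and 41 SREBP2 fragments, 43 and 33 RORγ fragments and 157 and 193 H3K27ac fragments. COX5A had 29 and 21, 21 and 13, and 107 and 138 in the same order, and COX5B 19 and 8, 6 and 7, and 40 and 31. The order of these 3 was the same for every antibody with vehicle. The SREBP2 summit of COX4I1 with vehicle lay 2 bp from the start of EMC8 and 218 bp from the nearest of its own. In complex V, the ATP synthase, SREBP2 was called at 15 of 20 genes with vehicle and 11 with XY018, and RORγ at 12 in each. Of the F1 head, ATP5F1A, ATP5F1C, ATP5F1D and ATP5F1E had both factors with vehicle, at 20, 28, 17 and 23 SREBP2 fragments. ATP5F1B, the catalytic β subunit, had no factor region and only 7 and 10 H3K27ac fragments, in a region 1661 bp inside the gene. It had no H3K27ac region at its canonical start.

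Several isoforms known from other tissues were among the genes with the most factor fragments. Of 9 such genes, 6 had SREBP2 and 6 had RORγ in each library, 66.7%. Over all genes the shares with vehicle and XY018 were 70.6% and 62.7% for SREBP2, and 62.6% and 61.5% for RORγ. The isoforms were thus not occupied clearly more often than other genes. Those with SREBP2 had a median of 44.5 fragments with vehicle, against 23 over the 67 occupied genes and 29 over all occupied genes. COX8C, a testis isoform, had 71 and 72 fragments for SREBP2 with vehicle and XY018, 90 and 88 for RORγ, and only 18 and 26 for H3K27ac. Its vehicle regions were chr14:93813135-93814101 for SREBP2 and chr14:93813250-93814303 for RORγ. COX7A1, a heart and skeletal muscle isoform, had 50 and 44 for SREBP2, 44 and 40 for RORγ and 35 and 34 for H3K27ac. COX4I2, an isoform best known from lung, had 39 and 32, 43 and 36, and 20 and 17 in the same order. COX6B2, a testis isoform, had 38 and 35, 30 and 27, and 26 and 38. At COX8C, COX7A1 and COX4I2 the factors thus outnumbered the mark in all libraries, unlike SDHA or UQCRFS1, although libraries of different antibodies are not on a common scale. COX6A2, a heart and muscle isoform, had 57 and 23 for SREBP2, 17 and 15 for RORγ and 43 and 59 for H3K27ac. No other protein-coding start lay nearer than 4038 bp to the factor summits of these 5 genes. COX7B2, NDUFA4L2 and ATP5MGL had no SREBP2 region, and UQCRHL, an intronless copy of UQCRH whose reads could be split with its parent, had 7 and 11 SREBP2 fragments.

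With XY018, 53 of the 67 SREBP2-occupied genes still had a region, 79.1% (67.4 to 88.1%), against 87.5% of all occupied genes, and no gene had a region with XY018 alone. The 14 without one were weak with vehicle, at 5 to 25 fragments with a median of 12, against a median of 27 and a range of 7 to 77 at the 53 that stayed. They include ATP5IF1, the inhibitor of ATP hydrolysis, ATP5MG, UQCR11, COX7A2L, COX8A, NDUFA1, NDUFA8, NDUFB3, NDUFB5, NDUFB9, ATP5MF and the 2 read-through genes NDUFC2-KCTD14 and ATP5MF-PTCD1. Among genes of up to 23 vehicle fragments the kept share was 64.9% (24 of 37) in the set and 66.7% over all genes. Among genes of 24 to 37 fragments it was 92.3% (12 of 13) and 97.9%, and above that 100% (17 of 17) and 99.4%. In each class of vehicle level, the share over all genes lay inside the counting interval of the set.

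Where an overlapping pair of regions existed, the fragments were divided by the background of each library to give an XY018 to vehicle ratio. For SREBP2 the median ratio was 0.616 over 53 genes (quartiles 0.521 and 0.712), against 0.622 over all 12337 pairs. The ratio was below 1 at 51 of the 53, 96.2%, with 97.97% over all genes. It was under 1/1.5 at 34, 64.2%, with 62.1% over all genes, and over 1.5 at none, with 0.0567% over all genes. The whole interval lay below 1 at 15 genes, 28.3%, with 36.7% over all genes. The interval left out the median of all genes at 1 gene, COX6A2, 1.89% of the set, with 2.01% over all genes.

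Among pairs of at least 40 fragments the lowest SREBP2 ratios were 0.342 at COX6A2 (57 and 23 fragments, interval 0.201 to 0.563), 0.351 at NDUFV2 (41 and 17, 0.187 to 0.632), 0.432 at CYC1 (47 and 24, 0.253 to 0.722) and 0.458 at COX6C (37 and 20, 0.252 to 0.809). The highest were 1.11 at ATP5PD (19 and 25, 0.589 to 2.14), 0.884 at NDUFA4 (23 and 24, 0.478 to 1.64), 0.859 at COX8C (71 and 72, 0.610 to 1.21) and 0.804 at NDUFB10 (40 and 38, 0.502 to 1.29). The intervals of the 4 lowest all stayed below 1, and those of the 4 highest all included it. SDHA had a ratio of 0.627 (0.437 to 0.894), close to the median. By complex, the medians were 0.610 for I (26 genes), 0.601 for III (5), 0.695 for IV (10) and 0.550 for V (11).

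**Figure D3:**
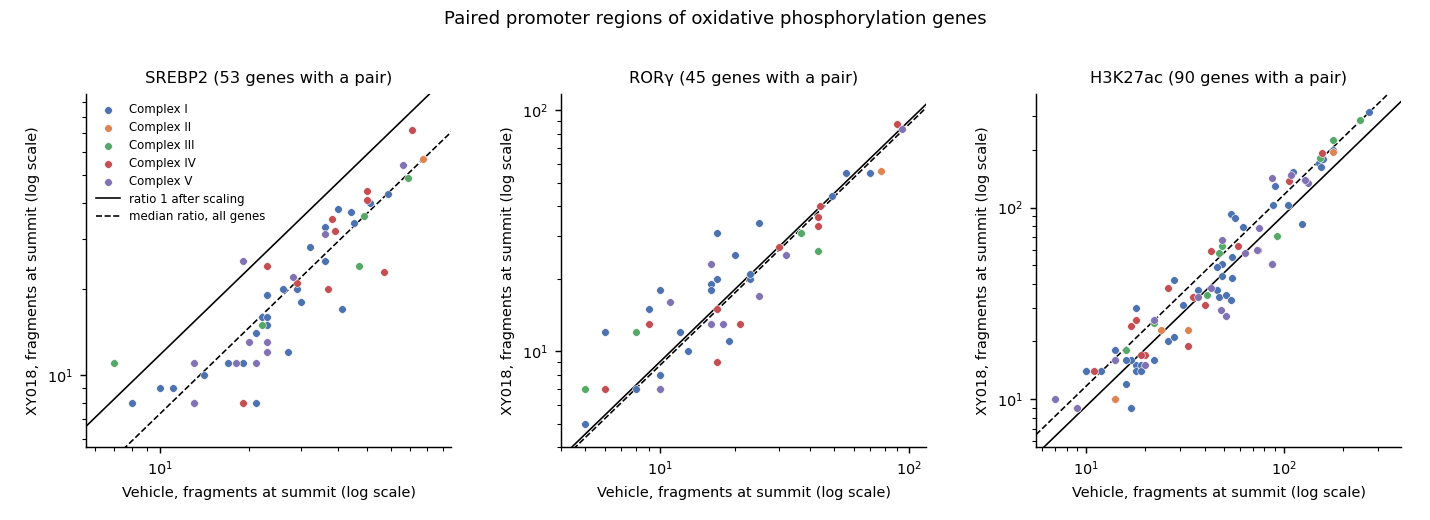
Fragments at the summit with vehicle (horizontal, log scale) and XY018 (vertical, log scale) for oxidative phosphorylation genes with an overlapping pair of regions, coloured by complex. The solid line marks equal levels after scaling and the dashed line the median ratio of all genes. For SREBP2, 51 of 53 genes lie below the solid line and spread around the dashed one at 0.622.

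For RORγ the median ratio was 0.993 over 45 genes (quartiles 0.864 and 1.31), against 0.967 over 11305 pairs. The ratio was below 1 at 24 of the 45, 53.3%, with 55.2% over all genes. Of the 54 genes occupied with vehicle, 46 were also occupied with XY018, 85.2% (72.9 to 93.4%), against 91.7% over all genes. Another 8 genes had a region with vehicle only and 8 with XY018 only, at 5 to 9 and 5 to 10 fragments, so that the number of occupied genes stayed the same while weak ones differed. Ratios over 1.5 were found at 10 genes, 22.2% of pairs, with 7.34% over all genes, and under 1/1.5 at 2, NDUFA11 and NDUFA4, 4.44%, with 9.5% over all genes. The 10 rested on 12 to 59 fragments over both libraries. The RORγ summit of NDUFA11 with vehicle lay 6192 bp inside the gene. At its canonical start NDUFA11 had no RORγ region with vehicle and 8 fragments with XY018. Only NDUFAB1, the mitochondrial acyl carrier protein, had an interval wholly above 1 (17 and 31 fragments, ratio 2.02, 1.08 to 3.88), 2.22% of pairs with 1.13% over all genes, and none had one wholly below, with 1.65% over all genes.

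The genes with the most RORγ fragments under vehicle were ATP5MJ, COX8C, SDHA and NDUFAF6. ATP5MJ, a small subunit of ATP synthase, had 94 RORγ fragments with vehicle and 84 with XY018, but in a region at chr14:104394123-104395417 whose summit lies at −7187 bp from its canonical start, near another annotated start and nearer to TDRD9. At its canonical start it had 6 RORγ fragments with vehicle and none with XY018, and 21 and 11 SREBP2 fragments. NDUFAF6 likewise had 70 and 55 RORγ fragments in a region far upstream, and 32 and 31 at its canonical start. Among pairs of at least 40 fragments the lowest RORγ ratios were 0.668 at UQCRH (43 and 26, interval 0.394 to 1.11), 0.752 at ATP5PD (25 and 17), 0.804 at SDHA (77 and 56, 0.559 to 1.15) and 0.848 at COX4I1 (43 and 33). After NDUFAB1, the highest were 1.503 at NDUFS6 (25 and 34, 0.871 to 2.63), 1.38 at NDUFS8 (20 and 25) and 1.09 at NDUFA13 (56 and 55). Apart from NDUFAB1, all of these intervals included 1. At its canonical start NDUFS8 had no RORγ region with vehicle and 5 fragments with XY018. The RORγ summit of NDUFA13 with vehicle lay nearer to TSSK6 (262 bp) than to any start of NDUFA13 (1063 bp). That of ATP5PD lay nearer to KCTD2 (148 bp) than to any start of ATP5PD (388 bp).

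H3K27ac was kept at 93 of the 95 marked genes, 97.9% (92.6 to 99.7%), against 96.8% over all genes. The median ratio was 1.10 over 90 genes (quartiles 0.859 and 1.35), against 1.27 over 12881 pairs, and it was below 1 at 34 genes, 37.8%, against 19.5%. Ratios over 1.5 were found at 15 genes, 16.7%, with 22.7% over all genes, and under 1/1.5 at 6, 6.67%, with 3.07% over all genes. The interval lay wholly above 1 at 14 genes, 15.6%, with 36.1% over all genes, and wholly below at 4, 4.44%, with 1.93% over all genes. The 4 were ATP5MG, NDUFB1 and the pair ATP5MF and ATP5MF-PTCD1, which share 1 region. Against the median of all genes, 11 intervals (12.2%) lay wholly under it and 2 (2.22%) wholly over it, where all genes gave 7.49% and 6.16%.

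The lower H3K27ac ratios were found among genes of weak and middle level. In the lowest of 3 classes of fragments over both libraries (up to 82), the median ratio was 1.03 over 47 genes and 1.16 over all genes. In the middle class (up to 206) it was 1.10 over 25 genes and 1.26 over all genes, and 12 of the 25 were below 1, 48%, against 21.1%. In the highest class it was 1.28 over 18 genes and 1.34 over all genes, with none of the 18 below 1. The genes of strongest H3K27ac thus kept close to other genes of that strength.

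Among pairs of at least 40 fragments the lowest H3K27ac ratios were 0.580 at ATP5MG (51 and 27 fragments, interval 0.350 to 0.942), 0.631 at COX8A (33 and 19, 0.339 to 1.14) and 0.642 at the region of ATP5MF and ATP5MF-PTCD1 (87 and 51, 0.445 to 0.918). ATP5MG, ATP5MF and ATP5ME, all small membrane subunits of ATP synthase, differed in direction, since ATP5ME was among the highest at 1.79 (87 and 142, 1.36 to 2.36). Its summit lay 110 bp from the start of the divergent gene MYL5. The other high ratios were 1.89 at NDUFS7 (54 and 93, 1.335 to 2.69), 1.83 at NDUFB3 (18 and 30, 0.985 to 3.48) and 1.69 at NDUFV3 (57 and 88, 1.198 to 2.40). The H3K27ac summit of NDUFV3 with vehicle lay 17 bp from a start of WDR4 and 386 bp from the nearest of its own. The most strongly marked genes had 1.27 at NDUFS6 (1.08 to 1.503), 1.29 at UQCRH (1.09 to 1.54), 1.38 at UQCRFS1 (1.13 to 1.69) and 1.201 at SDHA (0.974 to 1.48). By complex the medians were 1.10 for I, 0.916 for II (4 genes), 1.29 for III, 1.17 for IV and 1.10 for V.

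**Figure D4:**
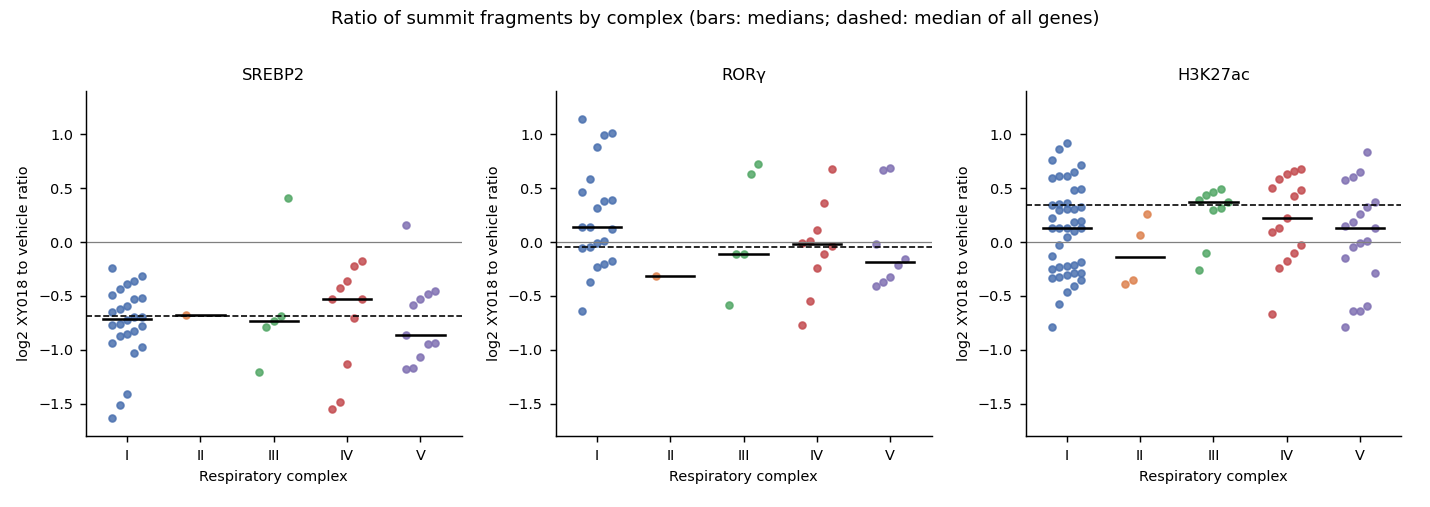
log2 of the XY018 to vehicle ratio of summit fragments (vertical) for each oxidative phosphorylation gene with a pair (points), by complex (horizontal), with group medians as bars and the median of all genes as a dashed line. SREBP2 ratios lie below 0 at 51 of 53 genes, RORγ ratios spread about 0, and H3K27ac medians lie under the dashed line in complexes I, II, IV and V.

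Of the 6 genes with an H3K27ac ratio under 1/1.5, 5 (ATP5MG, ATP5MF, ATP5MF-PTCD1, COX8A and ATP5IF1) had SREBP2 called with vehicle and not with XY018. ATP5MF and ATP5MF-PTCD1 share 1 region, and the assembly factor NDUFAF5 had no factor region. In the set as a whole, 14 of the 67 SREBP2-occupied genes had no region with XY018, and 87.5% of all occupied genes kept one. Of those 14 genes, COX7A2L, NDUFB3 and NDUFC2-KCTD14 went the other way, with H3K27ac ratios over 1.5. The share among all genes with such H3K27ac ratios was not counted, so no link between the losses can be read from these genes. Across the 52 genes with both ratios, SREBP2 and H3K27ac ratios had a Spearman correlation of 0.28, against 0.11 over 10325 genes. Across the 53 genes with both factors under vehicle, SREBP2 and RORγ fragments had one of 0.84, against 0.78 over all genes. The SREBP2 and RORγ summits were a median of 63 bp apart, against 71 bp over all genes. These correlations are across genes, which share the same libraries and differ in GC content, and are given as a description.

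The median position of the SREBP2 regions was like that of other genes, but the lower quartile lay farther upstream. The median SREBP2 summit with vehicle lay 140 bp downstream of the canonical start (quartiles −200 and 263), against 151.5 bp for all genes (−84 and 384.25). With vehicle the lower quartile was −313.75 bp against −60 bp for RORγ, and −272.5 bp against −126.25 bp for H3K27ac. The median width of the SREBP2 regions was 540 bp against 725 bp, and that of H3K27ac 833 bp against 1061 bp. A start of another protein-coding gene on the opposite strand lay within 1000 bp upstream at 33 of the 99 genes, 33.3% (24.2 to 43.5%), against 12.5% of all genes and 17.1% of those with H3K27ac. Such pairs include ATP5PF with GABPA, which encodes the ETS factor named above, NDUFA7 with the ribosomal gene RPS28, and NDUFS3 with KBTBD4, chosen as examples after the neighbours were seen. At 29 of 67 genes the SREBP2 region with vehicle also overlapped the promoter window of a gene outside the set. At 10 of the 67 the summit was nearer to the start of another gene. This was also so for the RORγ summits of 11 of 54 genes and the H3K27ac summits of 21 of 95. Reads from the 2 sides of such a promoter cannot be told apart.

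The promoters held the NRF1 and YY1 elements more often than others did. An NRF1, ETS or YY1 element was found in the 300 bp of 55 of 99 promoters, 55.6% (45.2 to 65.5%), against 19.6% of all promoters. The NRF1 element was found in 28.3% (19.7 to 38.2%) against 10.9% of all promoters and 14.4% of those with H3K27ac, the YY1 element in 25.3% (17.1 to 35.0%) against 4.97% and 6.82%, and the ETS element in 13.1% (7.18 to 21.4%) against 6.11% and 8.08%. The GC box GGGCGG (60.6% against 60.97%) and the CCAAT box (32.3% against 35.9%) were close to the share of all promoters, although the GC box was in 74.8% of those with H3K27ac. The SREBP element was found in 2.02% against 1.22%, and the ROR half-site in 6.06% against 4.45%. The YY1 element was in the promoters of the complex I core subunits NDUFS1, NDUFS3, NDUFS7, NDUFS8 and NDUFV2, and of CYC1, UQCRFS1 and ATP5F1B.

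**Figure D5:**
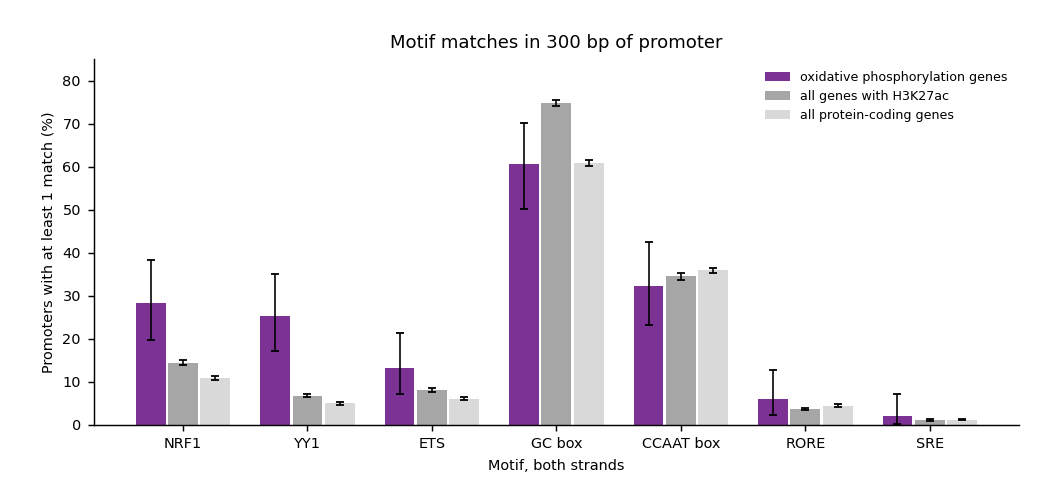
Share of 300 bp promoters with at least 1 match to each of 7 elements on either strand (vertical, percent; SRE is the SREBP element and RORE the ROR half-site) for oxidative phosphorylation genes, all genes with H3K27ac and all protein-coding genes, with exact 95% intervals for counting error. The NRF1 and YY1 bars stand above those of other genes, at 28.3% against 10.9% and 25.3% against 4.97%, while the intervals of the GC box, CCAAT box, RORE and SRE include the shares of all protein-coding genes.

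The NRF1 element was found at 10 of 32 genes without a SREBP2 region under vehicle, 31.2% (16.1 to 50.01%), and at 18 of 67 with one, 26.9% (16.8 to 39.1%). For the YY1 element the shares were 28.1% (13.7 to 46.7%) and 23.9% (14.3 to 35.9%). The GC box was found in 37.5% (21.1 to 56.3%) of the promoters without and 71.6% (59.3 to 81.99%) of those with SREBP2, and the median GC content was 56.8% and 63.3%. Over all genes the same split gave 25.7% and 75.7% for the GC box, 4.72% and 13.5% for the NRF1 element, 3.87% and 5.42% for the YY1 element, and a median GC content of 51.3% and 67.7%. Within 100 bp of the 67 SREBP2 summits, the NRF1 element was found in 4.48% and the SREBP element in none, which with 67 regions allows a share of up to 5.36% (exact interval). Over all 14188 genes with SREBP2 the shares were 5.32% and 0.67%. An NRF1, ETS or YY1 element was within 100 bp of the summit at 9 of the 67, 13.4%, against 7.95% of all genes with SREBP2.

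Other genes of the pathway were counted in the same way. Of 30 electron carriers and assembly factors without a member's name, such as CYCS (cytochrome c), SURF1 and SCO2, H3K27ac was called at 29 in each library. SREBP2 was called at 21 with vehicle and 17 with XY018, and RORγ at 16 and 15. With vehicle the shares for H3K27ac, SREBP2 and RORγ were 96.7%, 70% and 53.3%, against 66.8%, 70.6% and 62.6% of all genes. Their median ratios were 0.541 for SREBP2 (16 pairs), 0.955 for RORγ (13) and 1.22 for H3K27ac (29). CYCS had 15 SREBP2 fragments with vehicle and no region with XY018, no RORγ region, and 63 and 85 H3K27ac fragments. Of 10 regulators of mitochondrial gene expression, SREBP2 was called at 9 and 8, RORγ at 7 in each library and H3K27ac at 9 in each. With vehicle these shares were 90%, 70% and 90%. PPARGC1A, a coactivator of mitochondrial biogenesis, had no region in any list, whereas NRF1, which binds the element above, had 39 and 30 SREBP2 fragments, 34 and 28 for RORγ and 171 and 202 for H3K27ac.

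Other gene families gave these values. Among 84 cytosolic ribosomal protein genes SREBP2 was called at 56.0% with vehicle and 45.2% with XY018 and RORγ at 40.5% with vehicle, with median ratios of 0.529 for SREBP2 and 1.03 for H3K27ac. Among 48 proteasome genes the shares were 66.7%, 45.8% and 39.6%, with ratios of 0.656 and 1.15. Among the 21 cholesterol biosynthesis genes, on which SREBP2 is best known to act, they were 85.7%, 80.95% and 76.2%, with ratios of 0.529 and 1.198. Against the 67.7%, 53.5% and 54.5% of the oxidative phosphorylation genes, the ribosomal shares were lower and those of the cholesterol genes higher. The proteasome share was close for SREBP2 with vehicle (interval 51.6 to 79.6%) and lower for SREBP2 with XY018 and RORγ with vehicle. H3K27ac with vehicle was called at 96.4% of the ribosomal, 89.6% of the proteasome and 95.2% of the cholesterol genes. The oxidative phosphorylation genes had 96.0% and all genes 66.8%, so the high share of marked genes was not particular to them. The differences between these families were not tested.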

How the data were processed

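ChIP-seq libraries of HCC70 cells were grouped by the antibody and treatment in the labels, 1 library in each of 6 groups, and the 6 input samples were not analysed here. According to the methods, the authors mapped reads to hg19 with BWA, kept uniquely mapped, deduplicated tags and called peaks with MACS. The submitters' processing notes name Bowtie2 and MACS2 2.1.0. The deposited lists were narrowPeak files, 1 per library, in which the authors gave for each peak a fold enrichment ratio over background, −log10 p and −log10 q values, a summit and a display score, which was not used. Peak numbers in the H3K27ac files skip values, so these files are a subset of a larger calling run chosen in a way the sources used here do not state.

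The number of fragments at each summit and the local background were recovered by inverting the fold and −log10 p under the Poisson model of MACS, tested on simulated data. For 98.7% to 100% of the regions, depending on the library, a whole number of fragments gave the deposited −log10 p to within 5% of the step that 1 more fragment makes. Ratios were scaled by the commonest background of each library. GENCODE 44 on GRCh37, the same build as hg19, gave transcript starts, and no region ended beyond its chromosome. Overlap meant at least 1 bp. Genes were placed by the strongest region, pairs by the largest summed fragments. Intervals are exact binomial (Clopper-Pearson) at 95% and cover counting error only. All computing used Python 3.11.15, pandas 2.3.3 and scipy 1.17.1.

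The genes, lists and elements were chosen with earlier results of these data known. Named genes are those lacking a region in a list and the 4 with the most vehicle fragments per antibody. Also named are the 4 lowest and highest ratios among pairs of at least 40 fragments. A list of catalytic and other main subunits and the tissue-restricted isoforms were named too. The values of 1 of the 99 genes and 1 marker gene are counted in totals but are not reported here. A fold of 1.5 was used to count ratios. Alternatives were a q-value of at most 1e-05, a window of 5 kb, summits inside the window, lists of equal length, other pairing and scaling, and, chosen after seeing the data, the canonical start alone and the set without read-through genes.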

Additional observations from a re-analysis of the deposited data

How the results depend on the processing

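Of 109 recomputed values, 8 moved, counts by over 1.5 times. Only the median ratios have a direction that could turn, and 0 of them did. With ratios of the deposited folds in place of fragments, the median SREBP2 ratio was 0.727, 22 genes were under 1/1.5 and 1 over 1.5, and 5 genes had a RORγ ratio over 1.5. Requiring the summit inside the promoter window left 33 genes with both factors under vehicle and 59 with H3K27ac in both libraries. With the canonical transcript start alone, 1 gene had a RORγ ratio under 1/1.5. In that setting SREBP2 was called at 64 genes with vehicle (63.8% of all genes) and RORγ at 42 (53.3%), and 23 of 87 genes with H3K27ac in both libraries had no factor region, 26.4%, against 13.6% overall. An NRF1, ETS or YY1 element was found in 13.4% of windows within 100 bp of the SREBP2 summit in place of the promoter, against 7.95% for all genes. The causes were not tested.

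With 1 library per group none was left out, no replicate spread is known, and differences between libraries and between treatments cannot be told apart. No paired analysis was possible because each group held 1 library and the result comes from no test. Few fragments limit single genes most: only 30 of 53 SREBP2 pairs and 20 of 45 RORγ pairs held at least 40 fragments.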
